A study of Mus musculus with 13 samples.

Results

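Slx and Slxl1, multicopy genes of the X chromosome, were targeted by a hairpin RNA in round spermatids that already carried one against Sly, their Y-linked relative. The comparison set 3 arrays of shSLX1shSLY spermatids against 3 arrays of shSLY spermatids, 6 of the 13 arrays of the series, and every probe seen on at least 3 of the 13 arrays was kept. All mice were males of about 8 weeks on the MF1YRIII background. The shSLY males carried a transgene that expresses a short hairpin RNA against Sly, the shSLX1 males carried 1 against Slx/Slxl1, the shSLX1shSLY males carried both, and the WT siblings carried none, so the shSLY transgene was shared by both groups compared here and only shSLX1 differed between them. Each array held the RNA of 1 preparation of round spermatids, pooled from the testes of several males and separated by elutriation or by sedimentation under gravity. No source used here names the promoter that drives each hairpin, and the double transgenic stock was kept through females.

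Round spermatids are the haploid cells that follow meiosis. Their X and Y chromosomes are packed into a compact domain of repressive chromatin, and many X and Y genes expressed at this stage exist in many copies. In wild-type spermatids SLY is found on that domain in the nucleus, whereas SLX and SLXL1 are largely cytoplasmic. In shSLY spermatids the study reported a strong SLX/SLXL1 signal in most nuclei, nearly always on that domain. All 3 proteins are related to SYCP3 of the synaptonemal complex. The comparison asks which transcripts differ when the hairpin against Slx/Slxl1 is added to cells that carry the one against Sly.

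The 7 round spermatid markers tested (among them protamine and transition protein genes) averaged 12.75 to 12.82 on the shSLY arrays and 12.75 to 12.86 on the shSLX1shSLY arrays, in normalized log2 intensity. Markers of other cells were also read: the 3 pachytene spermatocyte markers averaged 7.95 to 9.14 on the shSLY and 8.87 to 9.15 on the shSLX1shSLY arrays, the 2 red blood cell markers 8.04 to 10.25 and 5.99 to 6.38, the 3 Sertoli markers 6.16 to 6.60 and 5.70 to 6.29 and the 8 macrophage markers 5.88 to 6.12 and 5.18 to 5.83. In the same order, the 3 Leydig markers averaged 5.89 to 6.41 and 5.53 to 5.96, and the 3 spermatogonium markers 5.69 to 6.28 and 5.66 to 5.92. The 3 myoid markers averaged 4.98 to 5.48 and 4.73 to 5.33, and the 2 endothelial markers 5.67 to 5.84 and 5.74 to 6.07. Levels of different probes on an array cannot be set against each other, so these values do not give the share of each cell type. Each array detected 17066 to 19057 probes above background, and a total of 14660 genes or unnamed probes was tested. No probe was named Slx or Slxl1 in the tables used here, so the lowering of these genes could not be checked by name; whether the X-linked model genes Gm14594, Gm5168 and Gm5935, which differed by -1.60, -1.50 and -1.20 between shSLX1shSLY and shSLY and by -1.21, -1.13 and -0.90 between shSLX1 and WT, are copies of them was not checked. The probe of Sly did not show a lowering by its hairpin: its mean was 10.06 in WT and 10.39 in shSLY, 0.33 above WT (adjusted p = 0.616), and 10.44 in shSLX1shSLY, 0.04 above shSLY (SE 0.30, adjusted p = 0.951). By PCR on round spermatids the study reported Slx/Slxl1 transcripts lowered in shSLX1 and shSLX1shSLY. It reported Sly transcripts lowered in shSLY, and more so in shSLX1shSLY. It detected no SLY1 protein in either, and considers non-coding Sly transcripts the likely reason why RNA and protein differ. No source used here says which Sly transcripts the array probe reads, and the sign of its difference between shSLX1shSLY and shSLY turned under several settings. Groups are therefore named by their labels.

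One shSLY array stood apart from the other two. Over all genes, shSLY 1 and shSLY 2 correlated at 0.995 with each other, at 0.976 to 0.979 with shSLY 3 and at 0.974 to 0.979 with the shSLX1shSLY arrays, whereas shSLY 3 correlated at 0.985 to 0.991 with the shSLX1shSLY arrays. Arrays were also clustered by the signal of the 20382 probes detected on no array, and the tree was cut into 3 sets. That number was a setting and not a result of the data. The cut parted shSLY 3 from shSLY 1 and 2 in the same way. The first set held WT 1, WT 2, shSLY 1 and shSLY 2, the second WT 3, WT 4, shSLX1 1 and shSLX1 2, and the last shSLY 3, shSLX1 3 and all 3 shSLX1shSLY arrays. In these probes shSLY 3 correlated at 0.536 to 0.556 with the shSLX1shSLY arrays and at 0.300 to 0.310 with the other shSLY arrays. The labels name no batch; the study's methods say that part of the WT, shSLY and shSLX1 preparations had been used in earlier work, without naming the arrays. Only shSLY 3 therefore offers a comparison within 1 set, with 1 control array. Without it the sets are linked only through WT, which lies in the first and second sets, and shSLX1, which lies in the second and the last. Each result below is given against all 3 shSLY arrays and also against shSLY 1 and 2 and against shSLY 3.

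Between shSLX1shSLY and shSLY, 15 of the 14660 genes differed (0.102%), 9 higher (0.0614%) and 6 lower (0.0409%). A gene was called where it differed over 1.5-fold with an adjusted p below 0.05 in limma's moderated test. All shSLX1shSLY arrays lie in 1 set with only shSLY 3 of the controls, so transgene and array set are largely confounded. The differences were 1.67-fold to 3.69-fold. Lower in shSLX1shSLY were Gm14594, Pold4, Actn4, Guca1a, Tfr2 and the unnamed probe ILMN_1239524. Higher were Flrt3, Tafa4, Slc27a1, Slc16a6, Rhobtb3, Rnf170, B230209E15Rik and the unnamed probes ILMN_1239084 and ILMN_2595368. The 15 were chosen with shSLY 3 among the controls, so their direction against it is a description. They differed from it the same way, by 0.71 to 1.90 on the log2 scale, and none passed against it alone (adjusted p = 0.0524 to 0.389). With the array set as a block 14 genes were called (0.0955%), of which Flrt3 and Gm14594 were among the 15. The other 13 kept their direction there and lost the call, at an adjusted p of 0.0534 to 0.121, and the sizes of the 15 were 0.70 to 1.78. With the set as a block and shSLY 3 left out as well, a fit chosen after seeing the data, the 15 kept their direction at 0.40 to 1.64 and none was called. The 2 genes called there (0.0136%), Sltm and Crat, differed by 0.35 and -0.29 without the block. No p under the threshold was reached when shSLY 1 or shSLX1shSLY 3 was left out (0 calls each, with 1528 and 2072 genes at an unadjusted p under 0.05), and 1863 genes, 12.7%, were called when shSLY 3 was left out. P-values here rest on the spread between arrays of a group, each 1 preparation. In WT, shSLY and shSLX1 that spread also holds differences between array sets.

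**Figure D1:**
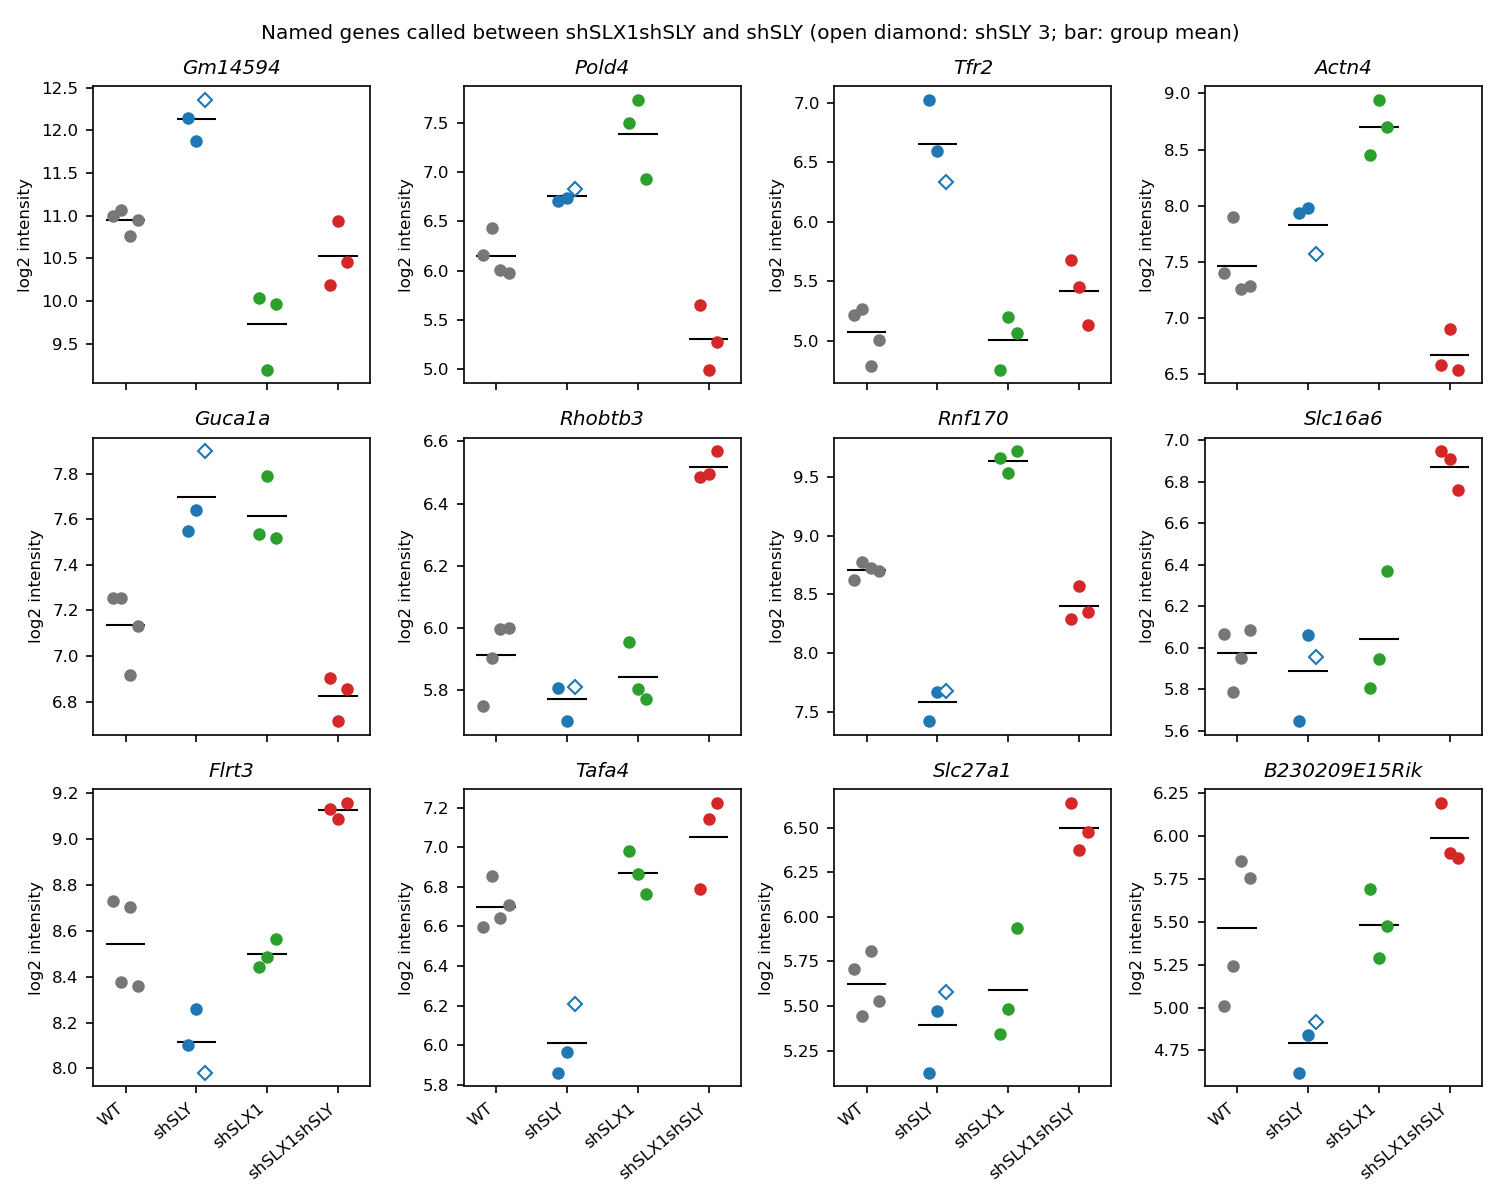
Normalized log2 intensity of the 12 named genes called between shSLX1shSLY and shSLY on each of the 13 arrays, by group, with a bar at each group mean and shSLY 3 as an open diamond. In every panel the 3 shSLX1shSLY arrays lie apart from the 3 shSLY arrays, and in Actn4, Pold4 and Guca1a they lie below WT while shSLX1 lies above WT.

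For 3 of the called genes the difference ran against that seen in cells without the Sly hairpin. Actn4 encodes an alpha-actinin that bundles actin filaments. It read 7.93, 7.98 and 7.57 in shSLY and 6.58, 6.90 and 6.54 in shSLX1shSLY, whereas the shSLX1 arrays, which carry the same second hairpin alone, read 8.45, 8.94 and 8.70 and the WT arrays 7.26 to 7.90. The fall was 1.16 (SE 0.20, adjusted p = 0.0391), 1.28 against shSLY 1 and 2 and 0.90 against shSLY 3. Pold4 encodes the smallest subunit of DNA polymerase delta. It read 6.71, 6.74 and 6.82 in shSLY and 5.65, 5.0 and 5.28 in shSLX1shSLY, with 7.49, 7.73 and 6.93 in shSLX1 and 5.97 to 6.43 in WT. The fall was 1.45 (SE 0.21, adjusted p = 0.0165), and 1.52 against shSLY 3. Guca1a encodes a calcium sensor that regulates guanylate cyclase in photoreceptors. It read 7.55, 7.64 and 7.90 in shSLY, 6.90, 6.71 and 6.86 in shSLX1shSLY and 7.52 to 7.79 in shSLX1, against 6.92 to 7.25 in WT, and fell by 0.87 (SE 0.15, adjusted p = 0.0391) and by 1.07 against shSLY 3. For all 3 genes both single transgenic groups had higher means than WT and shSLX1shSLY the lowest mean. In shSLY the means lay above WT by 0.37 for Actn4 (adjusted p = 0.367), 0.61 for Pold4 (adjusted p = 0.129) and 0.56 for Guca1a (adjusted p = 0.0413). For Actn4, shSLY 3 lay inside the WT range. In shSLX1, Actn4 and Pold4 each lay 1.24 above WT (adjusted p = 0.00124 and 0.0021), in a comparison that called 1.78% of all genes, while Guca1a was 0.47 higher there (adjusted p = 0.14). The difference between the 2 additions of shSLX1, tested as the interaction of the transgenes, was -2.39 for Actn4 (adjusted p = 0.000241), -2.69 for Pold4 (adjusted p = 0.000164) and -1.35 for Guca1a (adjusted p = 0.00265). The groups in this test lie in different array sets, for which it did not adjust. It also contains the difference by which the 3 genes were called. A second kept probe of Actn4 differed by -0.95 and one of Pold4 by -0.96. With the set as a block the adjusted p was 0.116 for Actn4, 0.0828 for Pold4 and 0.0669 for Guca1a.

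The promoters of these 3 genes are shown because the genes moved together, each as the 300 bases around the start of transcription in RefSeq's GRCm38.p6 annotation (250 bases before and 50 after, 5′ to 3′ on the gene's strand). Capitals mark TGACG on either strand, the half-site of the cAMP response element bound by CREM, a transcription factor of spermatids. Actn4 (chr7:28962283-28962582, minus strand) holds it 2 times, Pold4 (chr19:4231643-4231942, plus strand) 1 time and Guca1a (chr17:47400557-47400856, minus strand) not at all in this window.
Actn4: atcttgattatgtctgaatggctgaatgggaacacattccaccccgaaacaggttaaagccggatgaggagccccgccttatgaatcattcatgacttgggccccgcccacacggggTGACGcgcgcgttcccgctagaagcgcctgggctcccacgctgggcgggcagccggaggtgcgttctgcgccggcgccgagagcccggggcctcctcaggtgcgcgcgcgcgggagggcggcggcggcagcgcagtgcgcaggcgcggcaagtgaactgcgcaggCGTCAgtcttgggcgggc
Pold4: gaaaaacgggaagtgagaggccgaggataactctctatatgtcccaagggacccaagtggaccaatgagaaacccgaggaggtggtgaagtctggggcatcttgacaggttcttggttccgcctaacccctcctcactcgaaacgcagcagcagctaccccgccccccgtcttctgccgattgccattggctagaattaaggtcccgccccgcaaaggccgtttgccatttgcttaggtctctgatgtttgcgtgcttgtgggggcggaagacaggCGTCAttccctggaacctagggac
Guca1a: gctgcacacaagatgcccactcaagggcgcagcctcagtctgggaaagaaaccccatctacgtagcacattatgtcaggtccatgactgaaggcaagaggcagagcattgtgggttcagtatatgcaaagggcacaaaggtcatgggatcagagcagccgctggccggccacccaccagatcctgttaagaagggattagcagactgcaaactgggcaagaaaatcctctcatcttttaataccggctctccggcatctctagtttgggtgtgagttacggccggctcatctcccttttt
The half-site occurs in 6837 of all 32851 mouse promoters of this length (20.8%) and the full element TGACGTCA in 588 (1.79%). Of the 12 named genes called, 9 matched a promoter, and 3 of these (Actn4, Pold4 and Tfr2) held a half-site in at least 1 promoter. That count is by gene, and some genes have several promoters, so it cannot be set against the 20.8% of promoters. None of the 13 promoters held the full element. A match of letters is a description of the window and not a binding site.

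Gm14594 and Tfr2 were lower in shSLX1shSLY than in shSLY, and higher than WT in shSLY, by 1.18 (adjusted p = 0.00621) and 1.58 (adjusted p = 0.000425), a comparison that shares the shSLY arrays and called 3.08% of all genes. Gm14594, an X-linked gene known by its model number, read 12.15, 11.87 and 12.36 in shSLY and 10.19, 10.94 and 10.46 in shSLX1shSLY, with 10.76 to 11.07 in WT and 9.20 to 10.04 in shSLX1. It fell by 1.60 (SE 0.23, adjusted p = 0.0165) and by 1.83 against shSLY 3. In shSLX1 it lay 1.21 below WT (adjusted p = 0.00643), and the interaction of -0.38 did not pass (adjusted p = 0.73). Its probe may detect several X copies. Tfr2 encodes transferrin receptor 2, a sensor of iron in the liver. It read 7.03, 6.59 and 6.34 in shSLY, 5.68, 5.45 and 5.14 in shSLX1shSLY, 4.79 to 5.27 in WT and 4.76 to 5.20 in shSLX1. The fall was 1.23 (SE 0.21, adjusted p = 0.0391), 1.39 against shSLY 1 and 2 and 0.91 against shSLY 3, and the shSLX1shSLY arrays lay between those of shSLY and WT, with shSLX1shSLY 3 inside the WT range. The unnamed probe ILMN_1239524 was the most changed, at 13.24 to 13.28 in shSLY and 11.03, 11.85 and 11.25 in shSLX1shSLY (a fall of 1.88, SE 0.23, adjusted p = 0.00955), and by 1.90 against shSLY 3.

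Among the genes that rose, 2 had passed the same threshold as lower in shSLY than in WT. Rnf170, an endoplasmic reticulum ubiquitin ligase, read 7.42, 7.67 and 7.68 in shSLY and 8.29, 8.57 and 8.35 in shSLX1shSLY, below the 8.62 to 8.78 of WT, and rose by 0.82 (SE 0.14, adjusted p = 0.0391) and by 0.73 against shSLY 3, while the lowest of its 3 kept probes differed by 0.13. In shSLX1 it lay 0.94 above WT (adjusted p = 0.00058), and the interaction of -0.12 did not pass (adjusted p = 0.88). In shSLY it lay 1.12 below WT (adjusted p = 0.000318), in a comparison that shares the shSLY arrays. Tafa4, which encodes a secreted chemokine-like protein, read 5.86, 5.96 and 6.21 in shSLY and 6.79, 7.14 and 7.23 in shSLX1shSLY, and rose by 1.04 (SE 0.15, adjusted p = 0.0165; 0.85 against shSLY 3). It lay 0.69 below WT in shSLY (adjusted p = 0.0146), and its shSLX1shSLY arrays overlapped the 6.59 to 6.85 of WT.

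The other called genes that rose, like Tafa4, had their highest mean in shSLX1shSLY. Flrt3, a transmembrane adhesion protein with leucine-rich repeats, read 8.10, 8.26 and 7.98 in shSLY and 9.13, 9.09 and 9.16 in shSLX1shSLY, above all WT (8.36 to 8.73) and shSLX1 arrays (8.44 to 8.56). It rose by 1.01 (SE 0.14, adjusted p = 0.0165), by 0.95 against shSLY 1 and 2 and by 1.15 against shSLY 3, and a second kept probe differed by 0.45. Rhobtb3, which codes for a protein of the Golgi, read 5.81, 5.70 and 5.81 in shSLY against 6.49, 6.49 and 6.57, a rise of 0.74 (SE 0.13, adjusted p = 0.0391), and the WT and shSLX1 arrays reached only 6.0. Transporters of 2 families were among them. Slc27a1, which imports long-chain fatty acids, read 5.13, 5.47 and 5.58 in shSLY and 6.64, 6.37 and 6.47 in shSLX1shSLY, and rose by 1.10 (SE 0.18, adjusted p = 0.0387). Slc16a6, of the monocarboxylate transporter family, read 5.65, 6.06 and 5.95 against 6.95, 6.91 and 6.76, and rose by 0.98 (SE 0.17, adjusted p = 0.0391). B230209E15Rik, at 4.62, 4.84 and 4.91 in shSLY, where 2 of 3 arrays detected it, read 6.20, 5.90 and 5.87 and rose by 1.2 (SE 0.21, adjusted p = 0.0444). The probe ILMN_2595368 was detected on no WT and no shSLX1 array, on 2 shSLY arrays and on all 3 shSLX1shSLY arrays. It read 6.72, 5.85 and 6.37 in shSLX1shSLY against 4.80 to 5.21 in shSLY, a rise of 1.32 (SE 0.19, adjusted p = 0.0165). It passed the detection filter only through the shSLX1shSLY arrays, where it was high, so its detection pattern is a description. In shSLX1 none of Flrt3, Rhobtb3 and Slc27a1 differed from WT past the threshold (-0.05, -0.07 and -0.03). For these the interaction passed, at 1.06 (adjusted p = 0.013), 0.81 (adjusted p = 0.0327) and 1.14 (adjusted p = 0.0337). Over all genes the interaction passed for 201 (1.37%), a share that cannot be set against the called genes, since they were chosen by a part of that same contrast.

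Several differences were larger than these and did not pass. Nnmt, which methylates nicotinamide, read 4.75, 4.83 and 7.79 in shSLY and 8.96, 8.80 and 8.33 in shSLX1shSLY, a difference of 2.91 (SE 0.63, adjusted p = 0.0851) that was 3.91 against shSLY 1 and 2 and 0.90 against shSLY 3. The shSLX1 arrays split in the same way, with 6.13 and 6.50 on shSLX1 1 and 2 and 8.12 on shSLX1 3. Ckmt2, a mitochondrial creatine kinase of striated muscle, read 6.29, 6.69 and 6.23 against 9.33, 7.61 and 10.27 (2.67 higher, adjusted p = 0.103), and 2.84 higher than shSLY 3, but its WT arrays themselves fell into 7.11 and 7.20 on WT 1 and 2 and 9.71 and 9.56 on WT 3 and 4, which lie in different sets. Ntan1, an amidase of the N-degron pathway, read 6.42, 9.32 and 10.70 in shSLY against 10.76 to 11.60 (2.40 higher, adjusted p = 0.174; 0.51 against shSLY 3). Qtrt1, a subunit of the enzyme that inserts queuine into transfer RNA, was 1.46 higher (adjusted p = 0.0872) and 1.66 higher than shSLY 3. Dnaja2, a J-domain partner of HSP70 (1.33), and Rsbn1, a round spermatid basic protein (1.33), were 0.38 and 0.17 higher than shSLY 3, and a second probe of Dnaja2 was at 0.28. The remaining large differences upwards, from 1.35 to 1.54, were in Tal2, Pdxdc1, Nudt12os, Wdr48, Vps36 and Cgas, and of Pdxdc1's 5 kept probes the lowest difference was -1.82, so its probes disagree in direction.

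Genes of blood and macrophages were among the largest differences downwards, and none of them passed. Hba-a1, adult alpha-globin, read 9.50, 10.20 and 7.74 in shSLY and 5.86, 5.82 and 6.09 in shSLX1shSLY (a log2 difference of -3.22, SE 0.75, adjusted p = 0.0872; -1.82 against shSLY 3), and its WT arrays ran from 5.67 to 9.42. The adult beta-globins Hbb-bs (-2.95) and Hbb-bt (-2.94) went with it. Lyz2, lysozyme of macrophages, read 7.54, 7.21 and 7.63 in shSLY and 4.42, 6.60 and 4.91 in shSLX1shSLY, where 1 of 3 arrays detected it, a log2 difference of -2.15 (adjusted p = 0.0893) and of -2.32 against shSLY 3, with a second probe at -0.47. Laptm5, a lysosomal membrane protein of blood cells, stood at -1.82 and Apoe at -1.36. Necap2, an endocytosis adaptor, stood at -1.48, and at -1.88 against shSLY 3, with a second probe at -0.05. Lyz1 was at -1.55, with a second probe at 0.07. Of the 8 macrophage markers 4 were lower (50%) and 1 higher (12.5%) at an unadjusted p under 0.05, against 10.3% and 9.98% of all genes. Their median was -0.46, with -0.42 against shSLY 1 and 2 and -0.62 against shSLY 3. In these bulk preparations fewer cells of a type and less RNA per cell cannot be told apart, and the part of these markers in the other differences was not tested.

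At an unadjusted p under 0.05, 1463 genes were higher (9.98%) and 1514 lower (10.3%), and the 3 arrays of each group did not overlap for 1539 genes upwards (10.5%) and 1672 downwards (11.4%). These shares are the background for the functional lists below, none of which had a member called other than the genes named above. List members counted below as higher or lower passed that unadjusted p only, and their counts are a description. Across all genes the median difference was -0.02. The 13 lists plotted were picked from 73 after their values were seen. Among the others, the 50 with 10 or more genes tested had medians between -0.31, for protamines, transition proteins and spermatid histone variants, and 0.15, for cholesterol and fatty acid synthesis, and at most 23.1% of their members at that p in either direction.

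**Figure D2:**
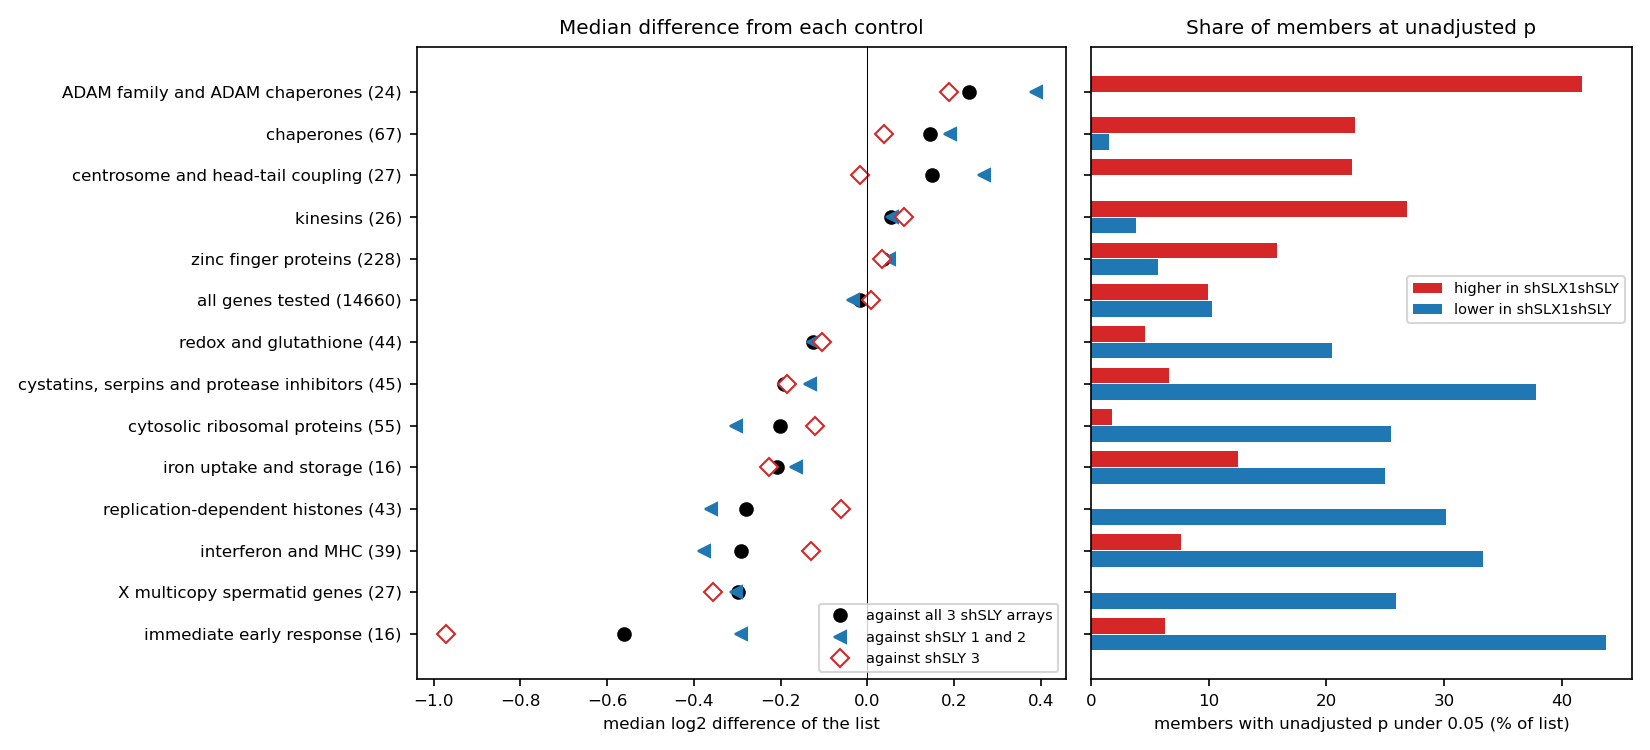
Left, median log2 difference of 13 functional lists and of all genes tested (number of genes tested in brackets) between shSLX1shSLY and all 3 shSLY arrays (filled circles), shSLY 1 and 2 (triangles) and shSLY 3 (open diamonds). Right, percent of each list's members at an unadjusted p under 0.05, higher (red) or lower (blue) in shSLX1shSLY. The ADAM list lies highest and the immediate early list lowest, and the latter lies at -0.97 against shSLY 3.

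The ADAM metalloproteases are surface proteins of which some serve sperm migration and egg binding in mice. Of 24 tested with their chaperones, 10 were higher (41.7%) and 0 lower in shSLX1shSLY, 8 lay below 0 and none was called. Their median was 0.23, with 0.39 against shSLY 1 and 2 and 0.19 against shSLY 3. The testis-specific members Adam20, Adam21 and Adam29 differed by 0.77, 0.60 and 0.44. Adam20 read 10.13, 10.03 and 10.91 in shSLY and 11.12, 10.99 and 11.27 in shSLX1shSLY (adjusted p = 0.131), so that shSLY 3 lay close to shSLX1shSLY, with a difference of 0.22, and a second probe of Adam20 was at 0.32 against all shSLY arrays. Against shSLY 3 alone, 1 array whose spread is taken from the other groups, 1 of the 24 was higher and 0 lower, where 479 of all genes were higher (3.27%) and 534 lower (3.64%). Relative to the median of all genes the list stood at 0.24 without background correction, at 0.25 under median scaling and at 0.16 with the array set as a block. Median scaling moved the median of all genes to -0.28.

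Chaperones assist the folding of proteins. Of 67 tested, 15 were higher (22.4%) and 1 lower, 21 lay below 0 and none was called, with a median of 0.14 that was 0.19 against shSLY 1 and 2 and 0.04 against shSLY 3. Cct8, a subunit of the cytosolic chaperonin, read 10.04, 10.01 and 10.59 in shSLY and 10.81, 10.82 and 10.71 in shSLX1shSLY (0.57, adjusted p = 0.119). Hsp90b1, the endoplasmic reticulum HSP90, read 11.57, 11.39 and 11.82 against 12.19, 12.08 and 12.26 (0.58, adjusted p = 0.141). In both genes shSLY 3 was the highest of the shSLY arrays. The testis HSP70 Hspa2 was 0.43 higher, with a second probe at -0.12, and Cct8l1 0.39 higher. Against shSLY 3 alone 0 of the 67 were higher, and relative to all genes the list's median was 0.03 with the set as a block.

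The centrosome and head-tail coupling genes depended on the control array. Of 27 tested, 6 were higher (22.2%) and 0 lower, but their median of 0.15 was 0.27 against shSLY 1 and 2 and -0.02 against shSLY 3. Ccdc42, needed for the sperm neck in mice, read 6.52, 6.49 and 8.20 in shSLY and 8.45, 8.24 and 8.38 in shSLX1shSLY, a difference of 1.85 from shSLY 1 and 2 and of 0.16 from shSLY 3. The shSLX1 arrays split likewise, at 5.65, 6.05 and 8.03. Cenpj, which builds centrioles, read 6.36, 5.71 and 6.88 against 7.66, 7.32 and 7.68 (1.24, adjusted p = 0.0936), and stayed 0.67 higher than shSLY 3. Kinesins had 7 of 26 higher (26.9%) and 1 lower with a median of 0.05, and zinc finger genes had 36 of 228 higher (15.8%) and 13 lower with a median of 0.04; relative to all genes the kinesin median was -0.01 under median scaling and the zinc finger median 0.00 and the centrosome median 0.01 with the set as a block. Zfp607b was detected on all 3 shSLX1shSLY arrays, at 5.27, 5.51 and 5.32, and on no shSLY array, and was at least 1.44-fold higher (adjusted p = 0.0584).

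The immediate early response genes, which many cells induce within minutes of a stimulus, had a median below 0 against either kind of shSLY array. Of 16 tested, 7 were lower (43.8%) and 1 higher, with a median of -0.56, -0.29 against shSLY 1 and 2 and -0.97 against shSLY 3. Egr1, a zinc finger transcription factor, read 8.67, 8.42 and 9.57 in shSLY and 7.59, 8.11 and 7.71 in shSLX1shSLY (a log2 difference of -1.08, adjusted p = 0.0974). Zfp36, which promotes mRNA decay, read 7.09, 7.0 and 7.69 against 6.17, 6.64 and 6.06 (-0.97, adjusted p = 0.0893). Fosb, named after its values were seen, read 6.46, 6.31 and 7.59 against 5.58, 6.13 and 5.73. In all 3 genes shSLY 3 was the highest of the 6 arrays and the groups did not overlap. Against shSLY 3 alone 9 of the 16 were lower and 1 higher, a count that rests on 1 control array. Fosb was -0.97 against all shSLY arrays (adjusted p = 0.145), -1.77 against shSLY 3, and passed at -1.66 with the array set as a block (adjusted p = 0.0289). Cebpb stood at -0.93 and Ier3 at -0.82. The interaction passed for Egr1 (-1.57, adjusted p = 0.0498) and Zfp36 (-1.45, adjusted p = 0.0351). Relative to all genes the list's median was -0.29 without background correction and -0.71 with the set as a block.

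Interferon and MHC genes were lower in 13 of 39 (33.3%) and higher in 3, with a median of -0.29, -0.38 against shSLY 1 and 2 and -0.13 against shSLY 3. Ifitm3, which restricts virus entry, read 5.46, 5.76 and 6.61 in shSLY and was detected on 0 of 3 shSLX1shSLY arrays, so it was at least 2.02-fold lower (adjusted p = 0.089). Ifitm2 stood at -0.94. Ifi27, a mitochondrial interferon-induced protein, read 8.81, 8.79 and 8.64 against 8.20, 8.25 and 8.30 (-0.50, adjusted p = 0.0978), below every WT array, while shSLX1 alone was 0.55 above WT (adjusted p = 0.021), and its interaction was -1.05 (adjusted p = 0.0044). The transcription factor Irf2 went the other way, at 0.95. Relative to all genes the list's median was -0.12 without background correction, -0.11 under median scaling and -0.08 with the set as a block. Macrophage markers are given above; their part in these values was not tested.

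Protease inhibitors and iron genes also had medians below 0. Of 45 cystatins, serpins and other inhibitors, 17 were lower (37.8%) and 3 higher, with a median of -0.19, the same against shSLY 3 and -0.09 relative to all genes without background correction. Wfdc17, a secreted inhibitor-like protein of macrophages, was at least 1.32-fold lower (5.54, 5.28 and 5.16 in shSLY, and detected on no shSLX1shSLY array, adjusted p = 0.0981). In the opposite direction Serpinb3d, at 5.48, 5.35 and 5.27 in shSLX1shSLY and detected on no shSLY array, was at least 1.43-fold higher (adjusted p = 0.0584), and Cstdc3 was 1.10 higher. Of 16 iron genes 4 were lower and 2 higher, with a median of -0.21. Tfr2, above, was the member that passed. Lcn2, a lipocalin that binds iron-carrying siderophores, read 6.4, 6.17 and 6.34 in shSLY, 6.34 to 6.73 in shSLX1, 5.31, 5.77 and 5.55 in shSLX1shSLY and 5.24 to 5.36 in WT. Both single transgenic groups thus lay above WT, and the lowest shSLX1shSLY array lay within the WT range: the difference was -0.76 (adjusted p = 0.0749) and the interaction -1.97 (adjusted p = 0.000164). Trf, transferrin, was at least 1.47-fold lower (adjusted p = 0.111). Redox genes had 9 of 44 lower (20.5%) and 2 higher, with a median of -0.12 that was -0.03 relative to all genes with the set as a block. Among them were Gpx1 (-1.13), Gstp1 (-0.87, with a second probe at -0.13) and Txnip, an inhibitor of thioredoxin (-0.81, adjusted p = 0.0872).

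Histone and ribosomal protein genes had lower medians against shSLY 1 and 2 than against shSLY 3. Of 43 replication-dependent histone genes 13 were lower (30.2%) and 0 higher, with a median of -0.28 that was -0.36 against shSLY 1 and 2 and -0.06 against shSLY 3. H2ac12 read 8.57, 10.06 and 7.54 in shSLY and 6.88, 7.24 and 7.44 in shSLX1shSLY (-1.54, adjusted p = 0.151; -0.35 against shSLY 3). H2ac22 (-1.25) and H4c3 (-0.63) were close to shSLY 3 in the same way, at -0.37 and -0.32. Members of this family share sequence, and their probes may not separate them. Of 55 cytosolic ribosomal proteins 14 were lower (25.5%) and 1 higher, with a median of -0.20, -0.12 against shSLY 3. The X-linked members Rps4x (-1.59) and Rpl39 (-1.35) were the lowest, and Rps4x read 6.38, 8.97 and 7.02 in shSLY against 5.58, 6.37 and 5.67, with shSLY 2 far above the other arrays. With the set as a block the medians relative to all genes were -0.08 for the histones and -0.05 for the ribosomal proteins. The spermatid histone variants and protamines had 3 of 13 lower and 0 higher, with H2al1m at -0.70 and H2al3 at -0.68.

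Both sex chromosomes had mean differences below those of every autosome. The mean difference over the 355 X genes was -0.20 and over the 16 Y genes -0.27, while no autosome lay outside -0.06 to 0.06. X genes were -0.18 against shSLY 1 and 2 and -0.24 against shSLY 3, and Y genes -0.24 and -0.32, so both shifts were as large within the set. At an unadjusted p under 0.05, 89 X genes were lower (25.1%) and 18 higher (5.07%), and 8 Y genes were lower (50%) and 2 higher. Measured from the WT mean, X genes averaged 0.54, 0.49 and 0.57 on the shSLY arrays and 0.28, 0.45 and 0.28 on the shSLX1shSLY arrays, and Y genes 0.84, 0.69 and 0.84 against 0.44, 0.62 and 0.50. The arrays did not overlap, and shSLX1shSLY 2 was the highest of its group on both chromosomes. The exact permutation test over arrays, two-sided, gave p = 0.1 for each chromosome, the smallest that 3 against 3 allows.

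**Figure D3:**
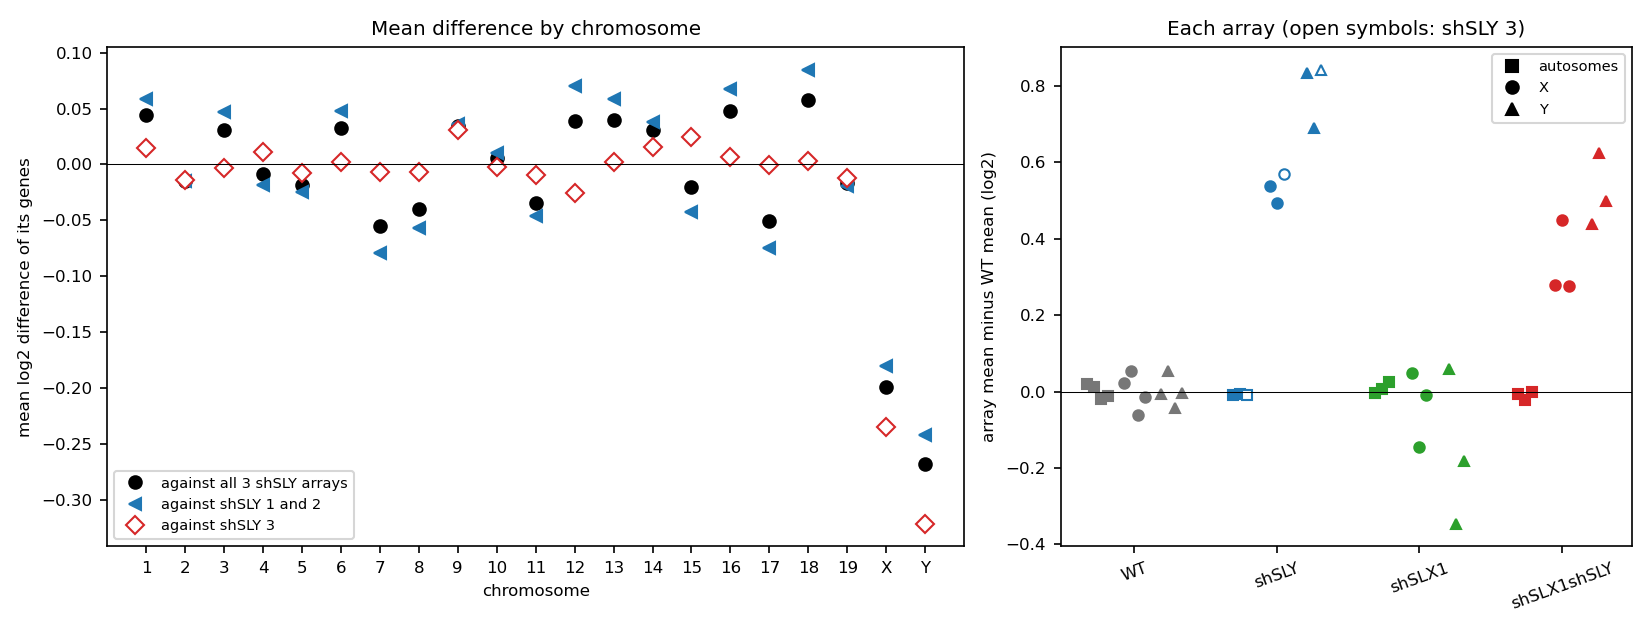
Left, mean log2 difference of the genes of each chromosome between shSLX1shSLY and all 3 shSLY arrays (circles), shSLY 1 and 2 (triangles) and shSLY 3 (open diamonds). Right, mean over autosomal, X and Y genes on each array minus the WT mean, with shSLY 3 as open symbols. X and Y lie at -0.20 and -0.27 on the left, and on the right the shSLX1shSLY arrays lie between shSLY and WT for X and Y genes.

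Multicopy X genes of spermatids had a median of -0.30, against -0.20 over all 355 X genes. Their share lower at an unadjusted p under 0.05 was close to the 25.1% of all X genes. Of 27 tested, 7 were lower (25.9%) and 0 higher, with a median of -0.30, also -0.30 against shSLY 1 and 2 and -0.36 against shSLY 3, and at -0.19 to -0.24 relative to all genes under the alternative normalizations and with the set as a block. Rhox11, a homeobox gene, read 9.25, 9.01 and 9.44 in shSLY and 8.26, 8.70 and 8.26 in shSLX1shSLY, above the 7.27 to 7.39 of WT (-0.82, adjusted p = 0.089; -1.03 against shSLY 3). Cypt2, of the perinuclear theca, read 11.99, 11.80 and 11.75 against 11.09, 11.32 and 11.09, with 10.11 to 10.60 in WT (-0.68, adjusted p = 0.0936). In both genes shSLX1shSLY lay between WT and shSLY with no overlap. Actrt1, an actin-related protein of the sperm head, read 11.45, 11.30 and 11.75 against 10.94, 11.24 and 10.72 (-0.53, SE 0.18, adjusted p = 0.161), and Tcp11x2 was at -0.32 (adjusted p = 0.275).

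Other X genes with large differences were Usp26, a deubiquitylase of the testis (-1.05), Ube2dnl2, a ubiquitin-conjugating enzyme-like protein (-0.73), and the mitochondrial ADP/ATP carrier Slc25a5 (-0.87, adjusted p = 0.0872). Renbp, an enzyme of amino sugar metabolism, and Spaca5, a lysozyme-like acrosomal protein, were named after their values were seen. Renbp read 6.30, 5.96 and 6.08 in shSLY and 5.39, 5.33 and 4.75 in shSLX1shSLY (-0.96, adjusted p = 0.0849). Spaca5 read 11.51, 11.56 and 10.79 against 10.19, 10.47 and 10.08 (-1.04, adjusted p = 0.0851). In shSLY both lay above every WT array. A few X genes ran the other way, among them, chosen after their values were seen, Ogt, which adds O-GlcNAc to proteins (0.48; 7.51, 7.53 and 7.74 against 8.17, 7.94 and 8.12), C1galt1c1, a chaperone of O-glycan synthesis (0.94, but 0.23 against shSLY 3), and Arhgap6, a GTPase-activating protein detected on no shSLY array and at least 1.40-fold higher (adjusted p = 0.0747).

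On the Y, the multicopy spindlin relatives Ssty1 and Ssty2 did not pass. Ssty1 read 13.03, 13.06 and 12.93 in shSLY and 12.44, 12.71 and 12.33 in shSLX1shSLY, against 11.55 to 11.84 in WT (-0.51, SE 0.17, adjusted p = 0.146; -0.43 against shSLY 3). Ssty2 read 14.28, 14.24 and 13.95 against 13.29, 13.79 and 13.54 (-0.61, adjusted p = 0.143). In both, shSLX1shSLY lay below every shSLY array and above every WT array. The zinc finger gene Zfy1 was at -0.54, with a second probe at 0.58, and the histone variant H2al2c, named after its values were seen, at -0.84 with an interaction of -1.39 (adjusted p = 0.0316). The single-copy deubiquitylase Usp9y was 0.48 higher, and 0.11 against shSLY 3. The probes of multicopy Y genes may detect several copies.

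The share of the difference that shSLY 3 did not show was examined over all genes. shSLY 3 minus the mean of shSLY 1 and 2 had an SD over genes of 0.496, against 0.243 for shSLY 1 minus shSLY 2, and 399 genes lay more than 1 above the other shSLY arrays and 273 more than 1 below. The shSLX1shSLY mean minus shSLY 3 had an SD of 0.328, against 0.476 and 0.505 for shSLY 1 and shSLY 2. Of the 2977 genes at an unadjusted p under 0.05 (20.3%), 2741 had the same sign against shSLY 3, but their median size was 0.29 there and 0.67 against shSLY 1 and 2. For the 877 that also passed the fold and did not overlap (402 higher, 2.74%, and 475 lower, 3.24%), the sizes were 0.46 and 0.88. Against shSLY 3 alone 1 gene was called (0.00682%), the unnamed probe ILMN_1212927, which read 8.97 on shSLY 3 and 11.20 to 12.61 on the other 5 arrays.

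**Figure D4:**
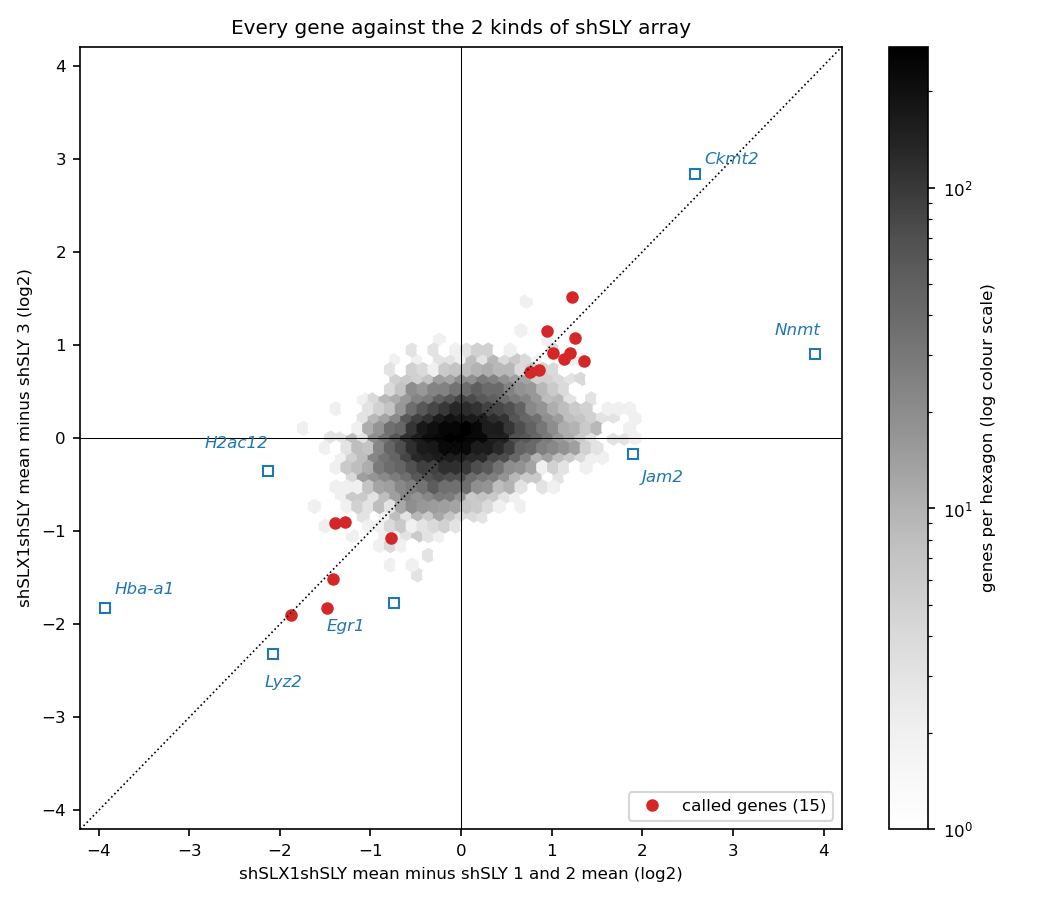
Difference of the shSLX1shSLY mean from shSLY 1 and 2 (horizontal, log2) and from shSLY 3 (vertical, log2) for all 14660 genes, shaded by number, with the 15 called genes in red and 7 other genes as squares. The called genes lie along the dotted line of equality, whereas Nnmt, H2ac12, Jam2 and Hba-a1 differ more from shSLY 1 and 2.

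Some genes separated from shSLY 1 and 2 but not from shSLY 3. Of the 445 whose shSLX1shSLY mean lay over 1 from shSLY 1 and 2 and under 0.5 from shSLY 3, 393 (88.3%) had shSLX1 3 on the same side of shSLX1 1 and 2, against 66.4% of all genes. Jam2, a junctional adhesion molecule, read 6.77, 6.89 and 8.89 in shSLY, 7.54, 7.01 and 8.52 in shSLX1 and 8.60, 8.77 and 8.79 in shSLX1shSLY. Its difference was 1.89 against shSLY 1 and 2 and -0.17 against shSLY 3, and a second probe was at 0.28 against all 3. Dld, a subunit of mitochondrial dehydrogenase complexes, named after its values were seen, was 1.77 and -0.50, and Sycp1 of the synaptonemal complex 1.17 and -0.15. Over all 14660 genes, shSLX1 3 minus shSLX1 1 and 2 correlated at 0.458 with shSLY 3 minus shSLY 1 and 2, at 0.481 with shSLX1shSLY minus shSLY 1 and 2, and at 0.00 with shSLX1shSLY minus shSLY 3. These are correlations across genes, which are not independent, and the arrays on the 2 sides differ. The shSLX1 arrays did not split in this way for every such gene: Gid4, named after its values were seen, differed by -1.74 from shSLY 1 and 2 and by 0.11 from shSLY 3, with a split of -0.08 in shSLX1. Dctn6, also named after its values were seen, differed by -1.52 and 0.24, with a split of 0.49 the other way. The 3 pachytene spermatocyte markers had a median of 0.88 against shSLY 1 and 2 and of -0.15 against shSLY 3, with a median split of -0.19 in shSLX1.

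Leaving shSLY 3 out called 988 genes higher (6.74%) and 875 lower (5.97%), the 15 among them, in a contrast whose arrays lie in different sets; with the set as a block as well, 2 were called, as given above. In that contrast 7 of 24 ADAM genes, 10 of 67 chaperones and 29 of 228 zinc finger genes were called higher, 11 of 43 replication-dependent histones, 7 of 55 ribosomal proteins and 5 of 27 multicopy X genes were called lower, and 2 of 16 immediate early genes were called lower. Of X genes 48 were called lower (13.5%) and 17 higher (4.79%).

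**Figure D5:**
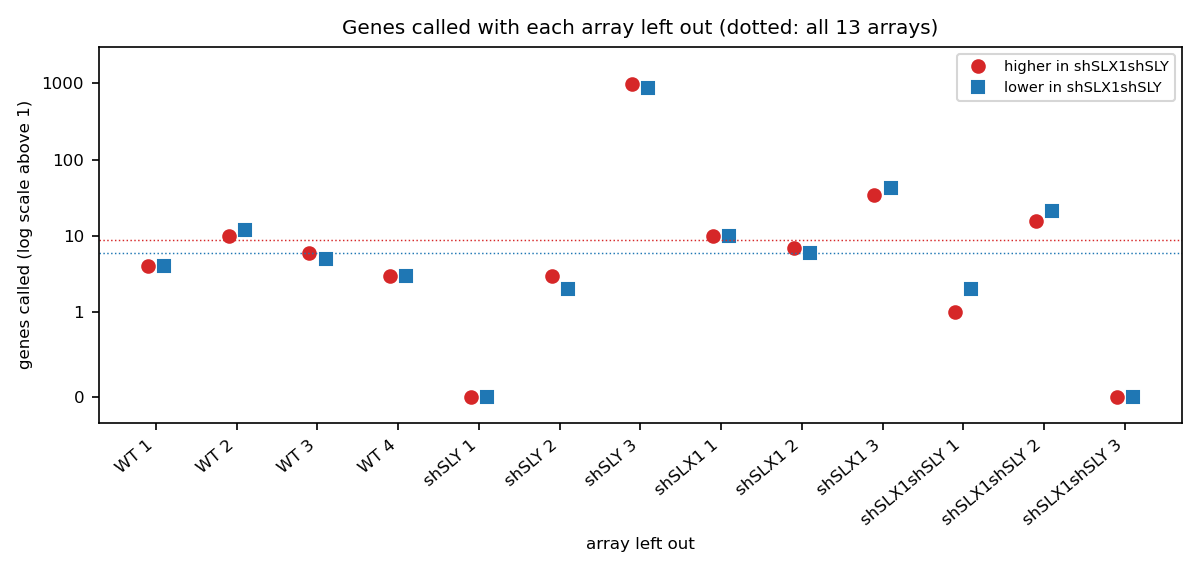
Number of genes called higher (red circles) and lower (blue squares) in shSLX1shSLY than in shSLY when each of the 13 arrays is left out in turn, on an axis that is logarithmic above 1, with the counts from all arrays as dotted lines. The counts reach 988 and 875 without shSLY 3 and 0 without shSLY 1 or shSLX1shSLY 3.

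Adding shSLX1 to shSLY and adding it to WT share no array, and over the 14660 genes the 2 differences correlated at 0.237, at 0.315 over the 2977 genes at an unadjusted p under 0.05 and at 0.360 over the 355 X genes. shSLX1 3 and all shSLX1shSLY arrays lie in 1 set, and WT 1, WT 2, shSLY 1 and shSLY 2 in another, so the 2 differences share array sets on both sides.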

How the data were processed

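Round spermatid RNA was hybridized to Illumina mouse BeadChip arrays. The authors deposited mean bead intensity per probe, not normalized, with a detection p-value per probe (GenomeStudio 2011.1 in the submitters' notes), and a second table of values quantile normalized in BeadStudio on a linear intensity scale. Groups follow the sample labels.

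Intensities were background-corrected and quantile normalized with neqc (limma 3.58.1, R 4.3.3, offset 16, negative controls inferred from the detection p-values). The filter kept 20250 of 45281 probes, those whose detection p was below 0.05 on 3 or more arrays. The number of arrays limits the precision. A gene is its kept probe with the highest mean; 34885 probes have 1 gene name, 18 several and 10378 none. Of the 90 genes named, 24 had several kept probes, and 4 had probes in opposite directions. All 13 arrays were fitted with 1 mean per group by lmFit and eBayes (9 residual degrees of freedom), with Benjamini-Hochberg adjustment over 14660 genes or unnamed probes. The interaction is (shSLX1shSLY minus shSLY) minus (shSLX1 minus WT). A gene with no detection on any array of a group is given as "at least" a fold, against the higher of its own value and the lowest detected signal on each array of that group. In data simulated for this comparison 68% of 2-fold and 17% of 1.5-fold changes were recovered among 14660 genes, with 3 unchanged genes called.

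The text names all called genes, the 12 largest differences each way, the genes measured by PCR in the study and up to 4 members of a list by smallest p; others are marked. The members, lists and alternatives were chosen with earlier results of these data known. Zfy2 was not tested. Python 3.11.15 and matplotlib 3.10.9 drew the figures, and promoters came from RefSeq GRCm38.p6.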

Additional observations from a re-analysis of the deposited data

Results flagged for a closer look

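For 13 of the genes named, the difference on adding shSLX1 to shSLY differed from that on adding it to WT by the interaction test (limma, adjusted over all genes, where 201 genes or 1.37% passed). The value was negative for Pold4 (-2.69), Actn4 (-2.39), Lcn2 (-1.97), Egr1 (-1.57), Zfp36 (-1.45), H2al2c (-1.39), Guca1a (-1.35) and Ifi27 (-1.05). It was positive for ILMN_2595368 (1.36), Slc27a1 (1.14), ILMN_1239084 (1.12), Flrt3 (1.06) and Rhobtb3 (0.81). These genes were named with the difference between shSLX1shSLY and shSLY known, which is itself a part of the interaction. More passes among them than over all genes are therefore built into the choice. The groups also lie in different array sets, for which the test did not adjust.

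Among the 4 WT arrays, WT 4 stood apart for Rhox11 and Slc25a5, with a gap to the nearest array of 0.866 and 0.960 of the group's range. Chance flags about 1 in 20 of the 90 genes examined in this way.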

How the results depend on the processing

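Of the alternatives, an offset of 50, no detection filter, a stricter filter, an intensity-dependent prior and no fold threshold kept the number called within 11 to 19, of which 11 to 15 were among the 15. The set as a block gave 14, of which 2 were among the 15, and the set as a block without shSLY 3, chosen after seeing the data, gave 2 (2 higher, 0 lower, with 816 genes at an unadjusted p under 0.05), of which 0 were among the 15. It was 5 (3 higher, 2 lower) without background correction and also with the authors' normalized values, 3 (0 higher, 3 lower) with median scaling, 9 (5 higher) with median scaling over kept probes, an alternative chosen after seeing the data, 9 (5 higher) with every kept probe tested, 1 (0 higher, 1 lower) with a test against a 1.2-fold change, 1 (1 higher, 0 lower) against shSLY 3 alone, 0 (0 higher, 0 lower, with 2782 genes at an unadjusted p under 0.05) with only the 6 arrays compared, and 2597 (1315 higher, 1282 lower) with array weights, where shSLY 3 had the lowest weight (0.244) and shSLY 1 the highest (4.84). Leaving out 1 array in turn gave 0 to 1863 called, 0 to 988 higher and 0 to 875 lower: 1863 without shSLY 3, 78 without shSLX1 3, 37 without shSLX1shSLY 2, 8 without WT 1, 6 without WT 4, 5 without shSLY 2, 3 without shSLX1shSLY 1 and 0 without shSLY 1 or shSLX1shSLY 3. The cause was not tested.

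The replicate numbers did not pair the samples, since deviations of same-numbered arrays correlated at 0.05, -0.04 and -0.03. With the replicate block, 62 genes were called (31 higher, 31 lower), including all 15.

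The X mean was -0.45 and the Y mean -0.61 under median scaling, where the median of all genes was -0.28, and X was -0.081 under median scaling over kept probes, where that median was 0.09. Signs turned for Sly (-0.27 under median scaling, -0.37 with the set as a block, -0.28 against shSLY 3, and -0.11 without shSLY 2 to 0.20 without shSLY 3 when 1 array was left out), Jam2 (-0.10 and -0.17 with the block and against shSLY 3), Dld (-0.48 and -0.50) and Sycp1 (-0.15 against shSLY 3). With the set as a block and without shSLY 3, where the Y mean was -0.16 and the X mean -0.15, signs turned for Ckmt2 (-0.049), Cgas (-0.011), Lyz1 (0.24), H2ac12 (0.0049), Sly (-0.66), H4c3 (0.10), H2al3 (0.11), Usp26 (0.22), Txnip (0.012), Wfdc17 (0.36), Ccdc42 (-0.35) and Dld (-0.44). With 3 arrays a group, changes under 2-fold were often below what the test recovers.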
